A study of Homo sapiens with 43 samples.

Results

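Peaks on the mitochondrial chromosome were examined in eCLIP data from HEK293T, a human embryonic kidney cell line. The members were all peaks that the deposited lists place on chrM, kept apart by strand, and numbered 5324 of the 1430241 peaks in 25 libraries, 5173 on the plus strand and 151 on the minus strand. In eCLIP, ultraviolet light crosslinks proteins to RNA, the protein is immunoprecipitated, complexes are cut out of a protein gel above the protein's size and their RNA is sequenced. Each peak carried the authors' log2 fold of the immunoprecipitation over its size-matched input and the authors' −log10 p.

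Of 43 samples, 25 were immunoprecipitation libraries with a peak list and 18 were inputs, whose own files were not used here. There were 6 libraries of tagged proteins: HNRNPC V5 isoform 1, HNRNPC V5 isoform 2, FMR1 FLAG, RBFOX2 V5, LIN28 V5 and DGCR8 FLAG. The series title gives the tags as integrated into the proteins' own genes by CRISPR/Cas9. The 5 libraries called wild type used an antibody against HNRNPC, FMR1, RBFOX2, LIN28 or DGCR8. A further 14 libraries, FLAG-only and V5-only without a named protein, came from 7 gel ranges of 75 kDa each, starting 25 kDa apart. Neighbouring ranges thus overlap in mass, and the labels do not say whether they share material. All libraries came from the same cell line and crosslinking protocol. Each protein and tag state had 1 library, and the labels do not say whether cultures were separate, so p-values measure the spread between libraries, which may be technical.

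Mitochondrial DNA is transcribed on both strands into long precursor RNAs. Most genes, including both ribosomal RNAs, are read from the plus strand of the reference, and MT-ND6 and a minority of the tRNAs from the minus strand. The precursors are cut mainly at the tRNAs that lie between the other genes, which frees the rRNAs of the mitochondrial ribosome, the mRNAs of respiratory-chain subunits and the tRNAs themselves. This takes place inside the organelle, whereas HNRNPC, RBFOX2 and DGCR8 are chiefly nuclear proteins and FMR1 and LIN28 act largely on cytoplasmic mRNAs.

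All 5324 peaks lay inside an annotated gene of the same strand, so 0 peaks fell antisense to a gene or in the control region. Whether genes were the sole place searched for peaks was not given in the sources used here. Gene names came from GENCODE release 29, whose limits may be displaced by a few bases from the hg19 positions of the lists. Shifting the gene limits by 3 bases left 18 peaks outside upward and 13 downward. Of 37 annotated genes, 28 held a peak and 22 held one in every library. Reads from nuclear copies of mitochondrial DNA cannot be told apart from mitochondrial reads in these lists.

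Significant peaks recurred in tRNA genes. Of the 22 tRNA genes 13 held peaks, and 7 held peaks called significant, meaning both a −log10 p and a log2 fold of 3 or more, the second being 8-fold over input. Their whole gene sequences, from GENCODE release 29 transcripts, are given 5′ to 3′ because these sites recur in the results. Capitals mark the bases 3′ of the gene's midpoint.
MT-TV: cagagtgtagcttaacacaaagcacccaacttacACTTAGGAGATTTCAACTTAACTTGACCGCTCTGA
MT-TY: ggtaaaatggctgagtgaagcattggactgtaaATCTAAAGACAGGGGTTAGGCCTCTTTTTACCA
MT-TP: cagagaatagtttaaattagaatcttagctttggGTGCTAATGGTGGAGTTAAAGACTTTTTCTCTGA
MT-TI: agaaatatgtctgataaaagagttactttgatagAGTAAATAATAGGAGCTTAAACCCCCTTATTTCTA
MT-TG: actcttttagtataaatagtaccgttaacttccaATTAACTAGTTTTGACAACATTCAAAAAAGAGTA
MT-TF: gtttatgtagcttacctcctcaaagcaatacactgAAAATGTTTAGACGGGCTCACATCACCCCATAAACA
MT-TH: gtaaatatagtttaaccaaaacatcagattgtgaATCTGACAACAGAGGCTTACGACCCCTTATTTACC

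Peaks favoured the capital part of some of these genes and not of others. All 25 peaks of MT-TY, all 21 of MT-TI and all 28 of MT-TP had their midpoint 3′ of the gene's midpoint, as did 27 of 28 in MT-TH and 25 of 30 in MT-TG. In MT-TV 26 of 52 did, in MT-TF 20 of 34, and in MT-TS2, the tRNA for serine read at AGU and AGC codons, 1 of 27. Over all tRNA genes the count was 202 of 301 peaks (67.1%), and 34 of 45 among significant peaks (75.6%). These counts are over libraries and not over separate sites. MT-TY and MT-TI, for example, had 1 peak in each library that listed them. No peak was listed in the other 9 tRNA genes, MT-TQ, MT-TW, MT-TA, MT-TN, MT-TC, MT-TS1, MT-TD, MT-TK and MT-TR.

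Mitochondrial RNA was mostly at or below input in the libraries of the RNA-binding proteins. The median log2 fold of the chrM peaks for HNRNPC was −2.39 with V5 isoform 1, −2.17 with V5 isoform 2 and −1.83 in the wild-type library. It was −0.49 in FMR1 FLAG and −0.11 in FMR1 wild type, −0.71 in both RBFOX2 V5 and RBFOX2 wild type, −1.10 in LIN28 V5 and −0.13 in LIN28 wild type, and −0.37 in DGCR8 FLAG and −0.30 in DGCR8 wild type. All 11 medians lay below 0, with the HNRNPC libraries lowest. Between 7.43% and 46.5% of chrM peaks in these lists had a fold above 0, whereas 85.1% to 95.6% of the peaks outside chrM did.

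The chrM median lay below the median of the nuclear peaks of the same list in all 25 libraries. In the 11 protein libraries the mean chrM median was −0.94 and the mean nuclear median 1.49, a difference of −2.43 ± 0.62 on the log2 scale (SD over libraries; exact sign-flip permutation p = 0.000977, two-sided, the smallest that 11 libraries allow, adjusted p = 0.00326). Over the 7 gel ranges, with both antibodies averaged in each, the mean chrM median was 0.51 and the nuclear median 1.83, a difference of −1.32 ± 0.27 (SD; exact sign-flip permutation p = 0.0156, the smallest possible for 7 ranges, adjusted p = 0.0312). The gap was smaller in the tag-only ranges than in the protein libraries by 1.11 (exact permutation of 7 ranges against 11 libraries, p = 0.000471, adjusted p = 0.00326), with 6 of 7 ranges above every protein library. All adjusted p-values are Benjamini-Hochberg values over a family of 10 tests. The 3 HNRNPC libraries concern a single protein, and with libraries of a protein averaged the first difference was −2.34 over 5 proteins, where the smallest p is 0.063. The comparison of ranges with protein libraries was not repeated in that way. Its p-value treats all units as independent, although the 11 libraries cover 5 proteins and neighbouring ranges overlap in mass. The groups also had different inputs, and the labels give no gel range for the protein libraries.

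**Figure D1:**
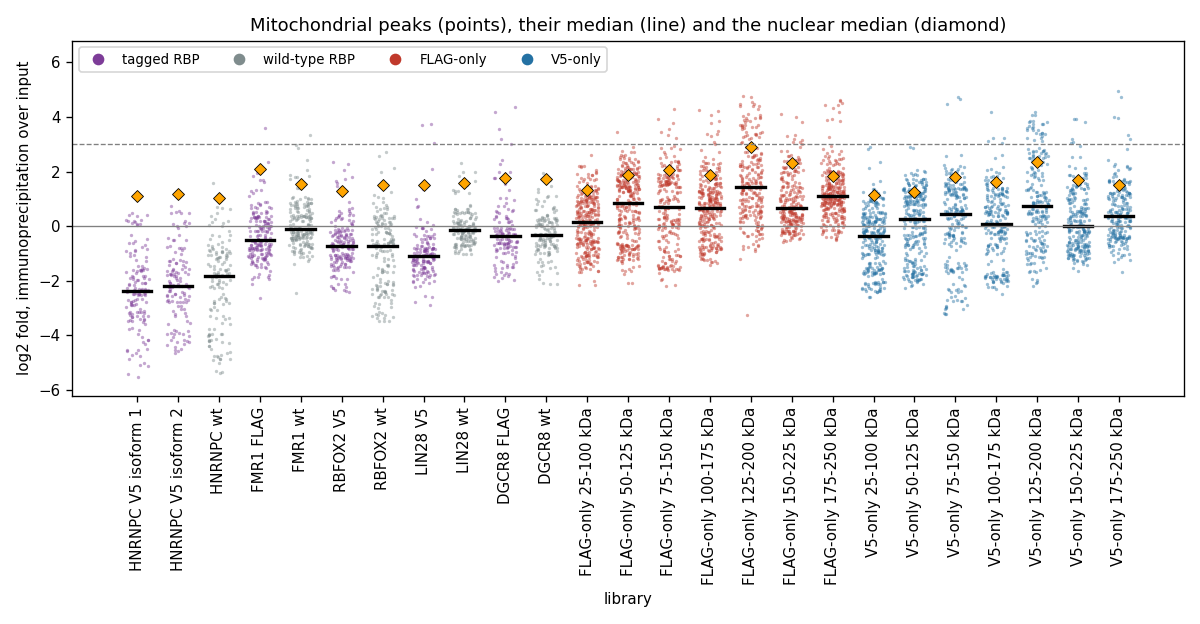
Log2 fold over input (vertical axis) of every chrM peak in each of the 25 libraries (horizontal axis), with the chrM median as a black bar, the nuclear median as an orange diamond and the significance threshold of 3 as a dashed line. The diamond lies above the bar in every library, and points above the dashed line are densest in the FLAG-only and V5-only 125-200 kDa libraries.

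In all, 140 chrM peaks were significant, 9 in protein libraries and 131 in tag-only libraries. The tagged DGCR8 FLAG list had 4 (3.01% of its chrM peaks, against a background of 1.78% of all its peaks), LIN28 V5 had 3 (2.03%, background 10.6%), FMR1 FLAG had 1 (0.552%, background 17.2%) and FMR1 wild type had 1 (0.541%, background 5.23%). The remaining protein libraries had 0. For HNRNPC the backgrounds were 0.76% with V5 isoform 1, 1.97% with V5 isoform 2 and 2.15% in the wild-type library, and they were 4.0% in RBFOX2 V5, 7.03% in RBFOX2 wild type, 4.73% in LIN28 wild type and 4.16% in DGCR8 wild type. Together with 3 tag-only libraries this made 10 libraries without a significant chrM peak, in which a count of 0 allows a share of up to 1.01% to 2.33%.

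In FLAG-only libraries the significant chrM peaks numbered 0, 1, 7, 11, 44, 10 and 11 from the lowest to the highest gel range. These were 0%, 0.327%, 2.92%, 3.73%, 18.4%, 3.95% and 3.64% of the chrM peaks, beside backgrounds of 1.21%, 3.75%, 6.7%, 6.43%, 22.1%, 11.5% and 6.86%. In V5-only libraries they numbered 0, 0, 3, 5, 27, 6 and 6, or 0%, 0%, 1.35%, 2.15%, 12.3%, 2.41% and 2.63%, beside backgrounds of 0.555%, 1.1%, 2.69%, 1.92%, 11.5%, 3.1% and 1.86%. The 125-200 kDa range held 71 of the 140 peaks, which leaves 69 in the other 23 libraries, and its background was also the highest in both antibodies. The chrM share was above the background in 4 libraries and below it in 21. Its 95% Wilson interval lay wholly below the background in 11 libraries and wholly above it in 0, so significant peaks were nowhere more frequent on chrM than in the whole list beyond counting error. These intervals cover counting error over peaks only, neighbouring peaks are not independent, and the depth in reads is unknown.

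The 140 peaks were concentrated in few genes. MT-RNR1, the 12S rRNA of the small mitochondrial ribosomal subunit, held 83 of them in 9 libraries, out of 866 MT-RNR1 peaks. Of these 83, 36 were neighbouring peaks of the single region chrM:1523-1564. MT-TV, the valine tRNA that lies between the rRNA genes and is built into the large subunit of the human mitochondrial ribosome, held 23 in 10 libraries. MT-TY, the tyrosine tRNA on the minus strand, held 10 in 10 libraries. MT-RNR2, the 16S rRNA of the large subunit, held 11, all in FLAG-only 125-200 kDa. Significant or not, MT-TV had 52 peaks, MT-TY 25 and MT-RNR2 2008. The rest were in the tRNAs MT-TG (4), MT-TP (3), MT-TF (2), MT-TI (2) and MT-TH (1) and in a single mRNA, MT-CO1 (1). By class, 45 of 301 tRNA peaks were significant (15.0%, 95% Wilson interval 11.4% to 19.4%), 94 of 2874 rRNA peaks (3.27%, 2.68% to 3.99%) and 1 of 2149 mRNA peaks (0.0465%, 0.00821% to 0.263%). These intervals count every peak as independent, although the same sites recur over libraries and are split into neighbouring peaks. MT-TV and MT-TY alone held 23 and 10 of the 45 tRNA peaks, and the 125-200 kDa libraries held 66 of the 94 rRNA peaks. The intervals are therefore too narrow for a comparison of classes. As a background, the share of all peaks significant averaged 5.64% over the 25 libraries, from 0.555% to 22.1%. The pooled rRNA and mRNA shares lay below that average and the pooled tRNA share above it. The average weights libraries equally, unlike the pooled class shares. All 9 significant peaks of the protein libraries were in tRNAs. Merged over libraries, the significant peaks formed 37 regions, of which 16 were significant in at least 2 libraries.

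**Figure D2:**
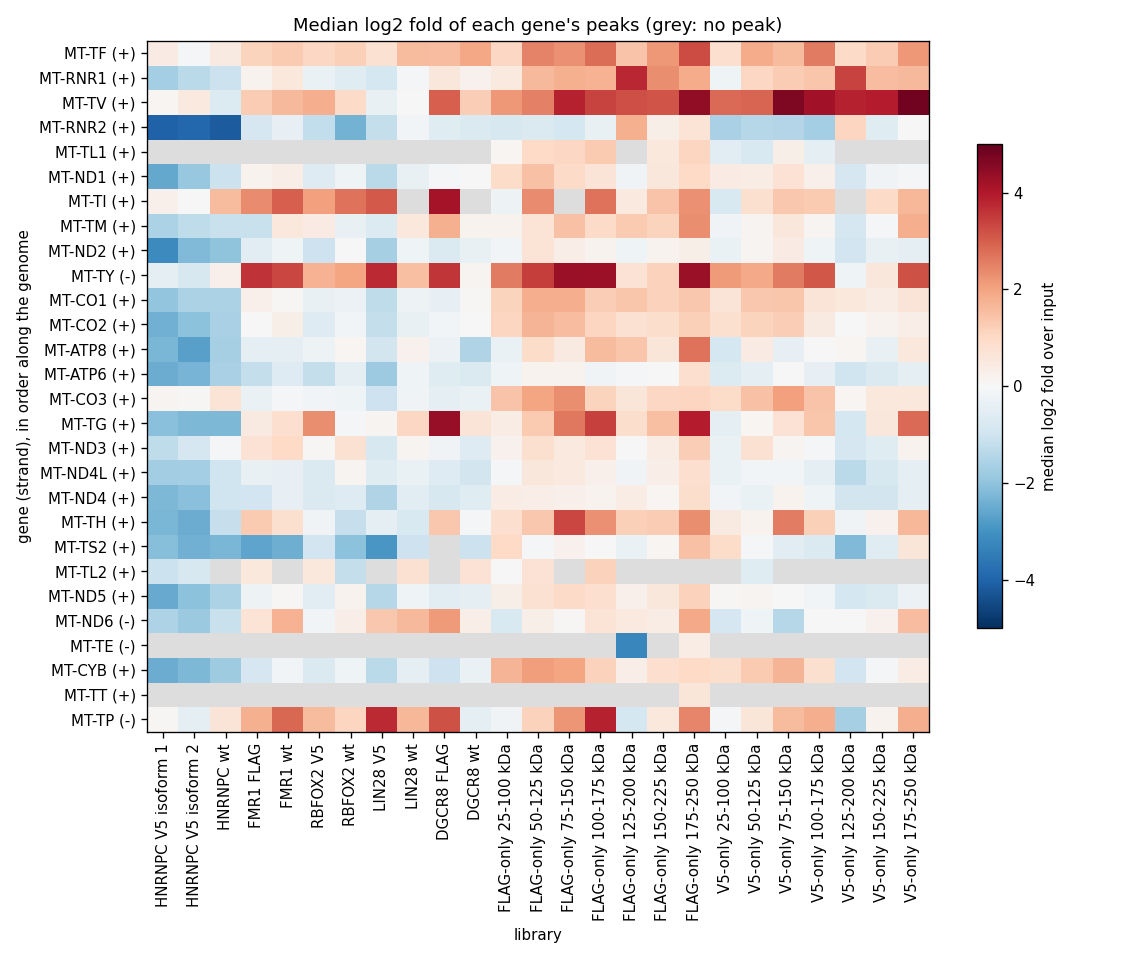
Median log2 fold over input (colour) of the peaks of each gene with a peak (rows, in genome order with the strand) in each of the 25 libraries (columns). MT-TV is red in all 14 tag-only columns, MT-RNR1 is darkest in the 2 columns of 125-200 kDa, and MT-RNR2 is deep blue in the 3 HNRNPC columns.

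The valine tRNA site at chrM:1616-1653 on the plus strand was significant in 10 of 14 tag-only libraries and in 0 of 11 protein libraries. In FLAG-only libraries its best peak had log2 folds of 2.19, 2.51, 3.92, 3.48, 3.24, 3.20 and 4.51 from the lowest to the highest gel range. In V5-only libraries the folds were 2.92, 2.92, 4.74, 4.19, 3.85, 3.93 and 4.94. Every range from 75-150 kDa upward was past the threshold with both antibodies, and both lower ranges were short of it. Among the protein libraries DGCR8 FLAG was highest at 3.0, short of the threshold before rounding. The site had 1.29 in FMR1 FLAG and 1.84 in FMR1 wild type, 1.81 in RBFOX2 V5 and 1.05 in RBFOX2 wild type, and 1.24 in DGCR8 wild type. LIN28 V5 had −0.36 and LIN28 wild type 0.02, and the HNRNPC libraries had 0.10 (V5 isoform 1), 0.50 (V5 isoform 2) and −0.69 (wild type). Protein and tag-only libraries overlapped, since DGCR8 FLAG lay above all 4 tag-only libraries of the lower ranges. The region was named for how often it was significant, so these values are a description without a test.

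The tyrosine tRNA site at chrM:5826-5860 on the minus strand differed in being called in both kinds of library. Each list had exactly 1 peak there. Its fold was 3.61 in FMR1 FLAG and 3.36 in FMR1 wild type, 3.73 in LIN28 V5 and 1.51 in LIN28 wild type, and 3.56 in DGCR8 FLAG and 0.16 in DGCR8 wild type. RBFOX2 V5 had 1.72 and RBFOX2 wild type 1.98, and the HNRNPC libraries had −0.47 (V5 isoform 1), −0.80 (V5 isoform 2) and 0.25 (wild type). The site was thus past the threshold in FMR1 with either antibody, and in LIN28 and DGCR8 with the tag antibody.

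Along the gel the tyrosine tRNA site did not follow the valine tRNA site. FLAG-only folds were 2.60, 3.46, 4.30, 4.26, 0.74, 1.17 and 4.33 from the lowest to the highest range, and V5-only folds were 2.14, 1.89, 2.61, 3.12, −0.23, 0.56 and 3.18. With both antibodies the 125-200 and 150-225 kDa ranges were lowest, while 100-175 and 175-250 kDa on either side were past the threshold.

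The third widespread region, chrM:1523-1564 on the plus strand, lay 37 nt from the annotated 3′ end of MT-RNR1, upstream of the valine tRNA. Its best peak had folds of 2.75, 3.55, 4.23, 4.78, 4.10 and 4.64 in the FLAG-only ranges from 50-125 kDa upward, and of 2.02, 2.16, 3.22, 4.18, 3.18 and 3.99 in the same V5-only ranges. Neither 25-100 kDa list had a peak there. Among the 11 protein libraries only DGCR8 FLAG had one, at 2.00.

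Minor tRNA sites were shared by fewer libraries. The glycine tRNA site at chrM:10010-10047 was significant in DGCR8 FLAG at 4.35, against 0.65 in DGCR8 wild type, and in FLAG-only 100-175 and 175-250 kDa at 3.78 and 3.94. In HNRNPC it lay at −2.08 with V5 isoform 1 and at −2.24 both with V5 isoform 2 and in the wild-type library. The proline tRNA site at chrM:15956-15989 on the minus strand was significant in LIN28 V5 at 3.71, against 1.64 in LIN28 wild type, in DGCR8 FLAG at 3.18, against −0.50 in DGCR8 wild type, and in FLAG-only 100-175 kDa at 3.84. FMR1 wild type was just short of the threshold there, at 2.86. MT-TI, the isoleucine tRNA, was significant in LIN28 V5 at 3.05 and DGCR8 FLAG at 4.18, and LIN28 wild type and DGCR8 wild type had no peak in it. It was above 0 in all 9 protein libraries with a peak, with a median of 2.37.

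MT-TF, the phenylalanine tRNA, was significant in FLAG-only 100-175 and 175-250 kDa, at 3.30 and 3.27, and MT-TH, the histidine tRNA, in FLAG-only 75-150 kDa at 3.34. MT-TS2 stood at the other end. Its median was below 0 in all 10 protein libraries with a peak, from −2.89 in LIN28 V5 to −0.97 in RBFOX2 V5, and it held the lowest chrM peak of 5 libraries.

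**Figure D3:**
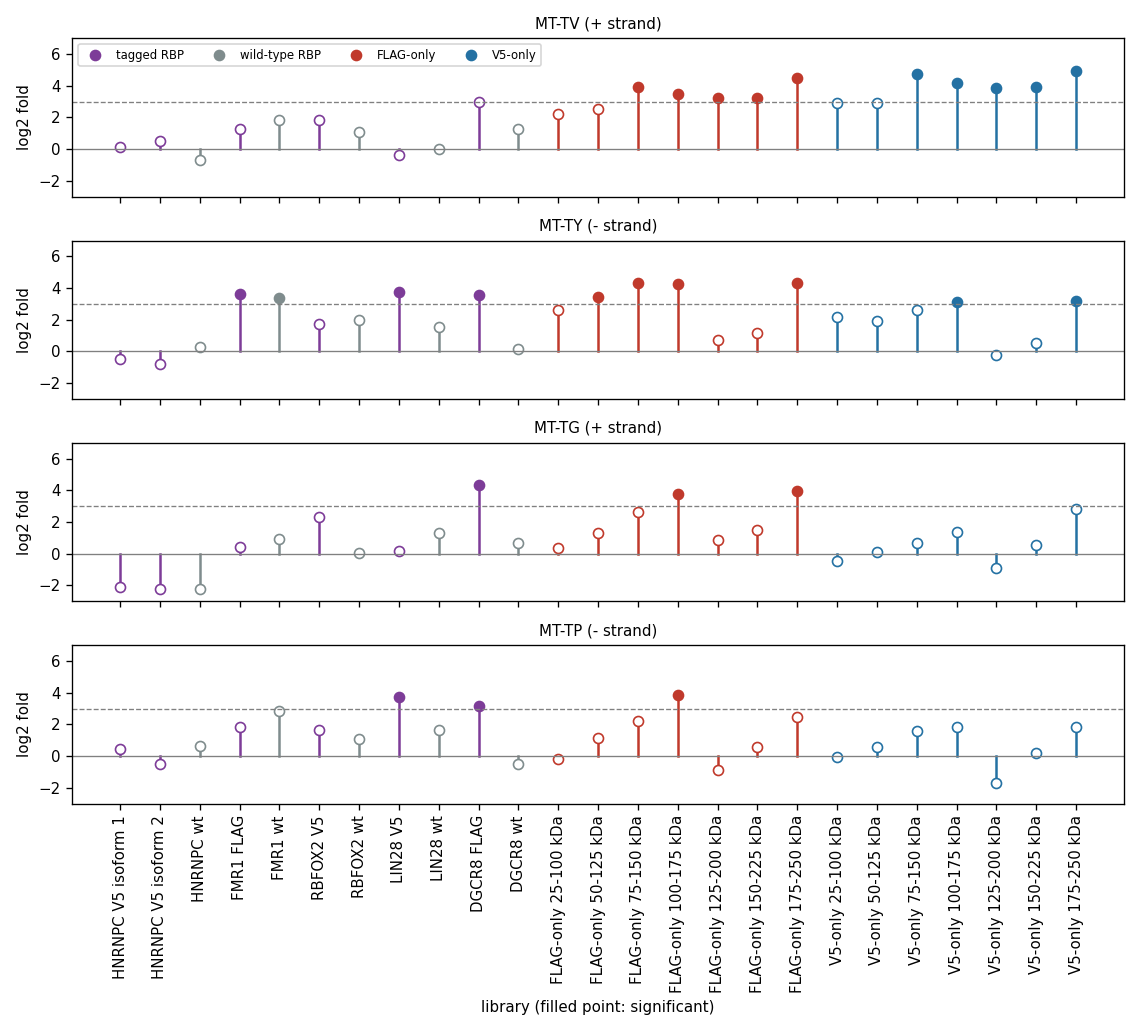
Highest log2 fold over input (vertical axis) of a peak on the MT-TV, MT-TY, MT-TG and MT-TP regions in each of the 25 libraries (horizontal axis), filled where significant, with the threshold of 3 dashed. MT-TV is filled in 10 tag-only libraries and no protein library, whereas MT-TY is filled in 4 protein libraries and 6 tag-only libraries.

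Strands differed within the protein libraries. Minus-strand peaks were few, 4 to 9 per library, and lay in MT-TY, MT-TP, MT-ND6, the complex I subunit gene, and in 2 libraries MT-TE. The median fold of minus-strand peaks was above that of plus-strand peaks in all 11 protein libraries, with a mean of 0.86 on the minus and −1.0 on the plus strand, a difference of 1.86 ± 0.76 (SD; exact sign-flip permutation p = 0.000977, adjusted p = 0.00326). The difference ran from 0.52 in DGCR8 wild type to 3.26 in LIN28 V5. With mRNA peaks only, which sets MT-ND6 against the plus-strand mRNAs, it was 1.20 (exact sign-flip permutation p = 0.000977, adjusted p = 0.00326), and with tRNA peaks only 1.05 (p = 0.0156 by the same permutation test, adjusted p = 0.0312). The tRNA difference was positive in 9 of 11 libraries and highest in LIN28 V5 at 4.09. It was negative in DGCR8 wild type, at −0.82, and in HNRNPC V5 isoform 2, at −0.22. With the libraries of each protein averaged, the difference over all peaks was 1.87 over 5 proteins and no longer passed (exact sign-flip permutation p = 0.063, the smallest possible, adjusted p = 0.0781). The restrictions to mRNA and tRNA were chosen after the values were seen.

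MT-ND6 had a median of 2.14 in DGCR8 FLAG and 0.34 in DGCR8 wild type, 1.37 in LIN28 V5 and 1.64 in LIN28 wild type, and 0.70 in FMR1 FLAG and 1.73 in FMR1 wild type. RBFOX2 V5 had −0.13 and RBFOX2 wild type 0.32, and the HNRNPC libraries had −1.54 (V5 isoform 1), −1.84 (V5 isoform 2) and −1.13 (wild type). The plus-strand mRNA medians of these 11 libraries ran from −2.39 to −0.17. No MT-ND6 peak was significant in any library, the highest being 2.66 in FLAG-only 175-250 kDa.

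In the tag-only ranges no strand difference was detected on average. The minus-strand median averaged 0.48 and the plus-strand median 0.52 over 7 ranges, a difference of −0.03 ± 0.79 (SD; exact sign-flip permutation p = 0.906, adjusted p = 0.906). The minus-strand median was higher in 3 of 7 ranges. Single ranges differed in opposite directions. The difference was −1.38 in FLAG-only and −1.04 in V5-only at 125-200 kDa. It was 0.70 and 0.89 at 100-175 kDa, and 0.95 and 1.28 at 175-250 kDa. In the other ranges it lay between −1.18 and 0.21.

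Within the rRNAs, MT-RNR1 stood above MT-RNR2 in all 25 libraries. In the protein libraries the MT-RNR1 median ran from −1.69 to 0.55 and the MT-RNR2 median from −4.15 to −0.13. MT-RNR2 was lowest in the HNRNPC libraries, at −4.06 (V5 isoform 1), −3.92 (V5 isoform 2) and −4.15 (wild type), followed by RBFOX2 wild type at −2.38. It held the lowest chrM peak of 15 of the 25 libraries. Over all rRNA peaks the median was below that of plus-strand mRNA peaks by 0.64 on average in the protein libraries, −1.51 for rRNA and −0.87 for mRNA (SD of the difference 0.92, exact sign-flip permutation p = 0.0381, adjusted p = 0.0544), which did not pass the threshold of 0.05. Without LIN28 V5, LIN28 wild type or DGCR8 FLAG the difference was −0.73, −0.72 or −0.72 and passed, and among peaks of at least 20 nt it was −0.05.

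The balance of rRNA and mRNA moved along the gel. FLAG-only rRNA medians were −0.47, 0.03, −0.01, 0.28, 2.21, 0.68 and 1.03 from the lowest to the highest range, and FLAG-only plus-strand mRNA medians were 0.75, 1.43, 1.29, 0.82, 0.41, 0.66 and 1.10. V5-only rRNA medians were −1.06, −0.48, −0.33, −0.26, 1.81, 0.19 and 0.54, and V5-only mRNA medians were 0.34, 0.93, 0.78, 0.25, −0.54, −0.18 and 0.17. With both antibodies rRNA was highest and mRNA lowest at 125-200 kDa, and mRNA was highest at 50-125 kDa. The rRNA minus mRNA difference at 125-200 kDa was 1.81 in FLAG-only and 2.36 in V5-only, whereas in each of the 4 lower ranges it was negative with both antibodies. Averaged over all 7 ranges it was −0.29 ± 1.24 (SD; exact sign-flip permutation p = 0.562, adjusted p = 0.625). That mean was −0.68 without 125-200 kDa, and −0.12, −0.10 and −0.14 without 25-100, 50-125 or 75-150 kDa.

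Both rRNAs contributed. MT-RNR1 had medians of 3.77 in FLAG-only and 3.37 in V5-only at 125-200 kDa, above the nuclear medians of 2.89 and 2.37 in the same libraries, and its next highest medians were 2.31 and 1.63. In that range 30 of 40 MT-RNR1 peaks in FLAG-only and 25 of 39 in V5-only were significant. MT-RNR2 had 1.77 in FLAG-only and 1.08 in V5-only there, and at most 0.67 and −0.01 in other ranges. In FLAG-only the regions chrM:1271-1307, chrM:1308-1313, chrM:1389-1412, chrM:1413-1431 and chrM:1469-1492 of MT-RNR1 reached 4.72, 4.39, 4.04, 4.12 and 3.95 at 125-200 kDa, and in V5-only 3.73, 3.65, 3.51, 3.73 and 3.73, the highest of the 7 ranges in every case. The ranges each have 1 library per antibody and a shared labelled input, so a library or input that stands apart cannot be told apart from the gel range itself.

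**Figure D4:**
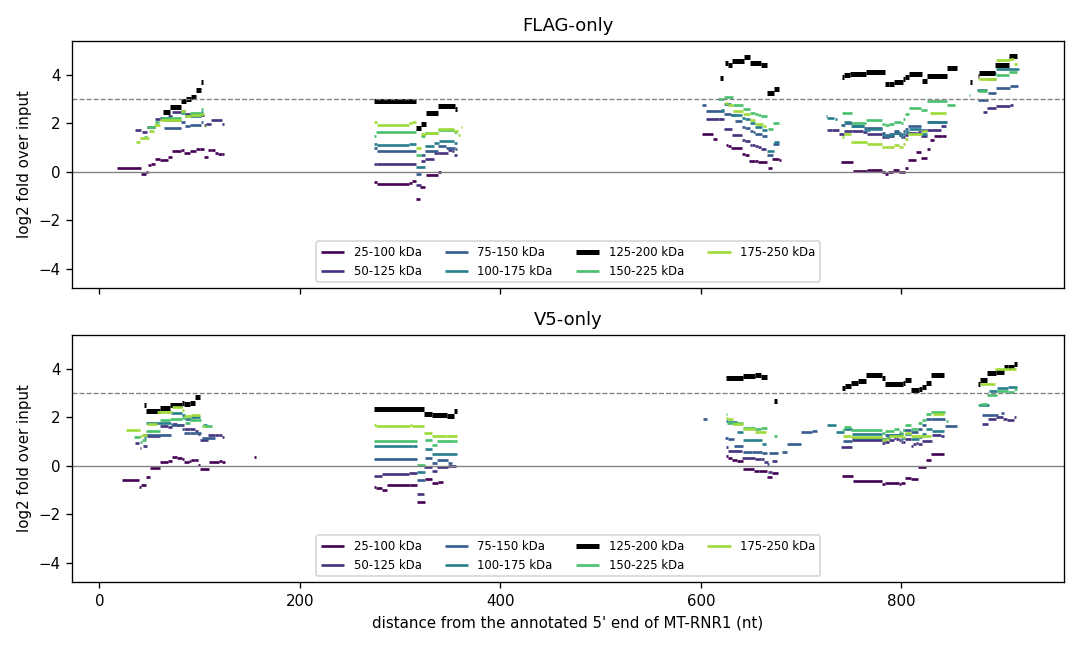
Log2 fold over input (vertical axis) of the MT-RNR1 peaks against distance in nt from the annotated 5′ end of the gene (horizontal axis), for FLAG-only (top) and V5-only (bottom) libraries of the 7 gel ranges, with the threshold of 3 dashed. The thick black 125-200 kDa peaks reach 4.78 in FLAG-only and 4.18 in V5-only, and near the 3′ end several other ranges also pass the threshold.

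**Figure D5:**
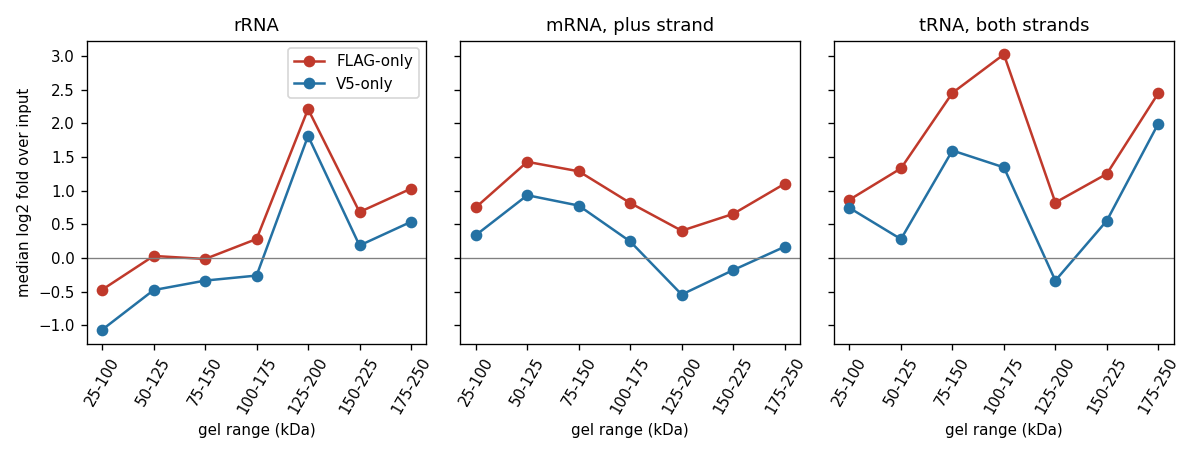
Median log2 fold over input (vertical axis) of rRNA, plus-strand mRNA and tRNA peaks by gel range in kDa (horizontal axis), in FLAG-only and V5-only libraries, 1 library per point. At 125-200 kDa rRNA reaches 2.21 and 1.81 while mRNA stands at 0.41 and −0.54.

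tRNA peaks as a class had the highest median of the 3 classes in all 11 protein libraries and in 10 of 14 tag-only libraries. At 125-200 kDa they had 0.83 in FLAG-only and −0.33 in V5-only, against 3.03 and 1.35 in 100-175 kDa and 2.45 and 2.00 in 175-250 kDa. The highest chrM peak of a library lay in a tRNA in 18 of 25 libraries, in MT-RNR1 in 4 and in an mRNA in 3.

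With gel ranges matched, mitochondrial folds were higher with the FLAG than with the V5 antibody. The median chrM fold was 0.16, 0.85, 0.69, 0.68, 1.42, 0.68 and 1.10 in FLAG-only from the lowest to the highest range, against −0.36, 0.27, 0.44, 0.09, 0.74, −0.01 and 0.39 in V5-only. The mean difference was 0.58 ± 0.16 (SD), positive in 7 of 7 ranges (exact sign-flip permutation p = 0.0156, adjusted p = 0.0312). Nuclear peaks were higher in FLAG-only as well, by 0.17, 0.65, 0.27, 0.24, 0.53, 0.62 and 0.33. Relative to the nuclear median of each list the chrM difference was 0.18, and the call was lost (exact sign-flip permutation p = 0.0938, adjusted p = 0.117). The share of chrM peaks significant was 4.71% in FLAG-only and 2.97% in V5-only on average, a difference of 1.74 percentage points with an SD of 2.04, positive in 6 of 7 ranges (exact sign-flip permutation p = 0.0312, adjusted p = 0.0521). That share did not pass the threshold, and 125-200 kDa alone differed by 6.14 points, without which the mean difference was 1.005 points. The share of all peaks significant was also higher in FLAG-only, at 8.36% on average against 3.25% in V5-only. The chrM share relative to that of all peaks was not compared between antibodies by a test.

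Not all genes shared this order. The best MT-TV peak was lower in FLAG-only than in V5-only of the same range in all 7 ranges, with medians over ranges of 3.24 in FLAG-only and 3.93 in V5-only. The MT-TY peak was higher in FLAG-only in all 7 ranges, with medians of 3.46 in FLAG-only and 2.14 in V5-only, and relative to the nuclear medians in 6 of 7. Both statements are descriptions of sites named for their calls and were not tested.

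Of the 13 mRNAs of the respiratory chain, 12 had a median below 0 over the protein libraries, the exception being MT-ND6. Among complex I genes the median over these 11 libraries was −0.37 for MT-ND1, −0.72 for MT-ND2, −0.10 for MT-ND3, −0.80 for MT-ND4, −0.66 for MT-ND4L and −0.53 for MT-ND5, with MT-ND6 at 0.34. MT-CYB of complex III had −0.84. The complex IV genes had −0.38 for MT-CO1, −0.36 for MT-CO2 and −0.19 for MT-CO3, and the ATP synthase genes had −1.20 for MT-ATP6 and −0.44 for MT-ATP8. In FLAG-only libraries the medians over the 7 ranges were highest for MT-CO1 at 1.34, MT-CYB at 1.16, MT-CO3 at 1.11 and MT-CO2 at 1.09, and lowest for MT-ATP6 at −0.04. In V5-only libraries MT-CO3 at 0.90, MT-CYB at 0.80 and MT-CO1 at 0.63 were highest, and MT-ND4L at −0.45 and MT-ATP6 at −0.44 lowest. The sole significant mRNA peak lay in MT-CO1 at chrM:6017-6046, at 3.07 in FLAG-only 125-200 kDa.

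MT-CO3 stood out among the mRNAs of the HNRNPC libraries, an observation made after the values were seen and not tested. Its median fold was 0.14 with V5 isoform 1, 0.07 with V5 isoform 2 and 0.70 in the wild-type library, while the median of the other mRNA genes was −2.34, −2.05 and −1.57 in the same order. It ranked first of 13 mRNAs in all 3. The peaks toward the 3′ end, between chrM:9724 and chrM:9927, had medians of 0.19, 0.47 and 0.93 in these libraries. Those toward the 5′ end had −0.89, −0.51 and 0.14, the last from 1 peak. The highest chrM peak of each V5 isoform library lay toward the 3′ end, at 0.50 (chrM:9794-9832) and 0.73 (chrM:9724-9794). The 3′ median was also the higher in every other protein library, for example 0.22 against −0.81 in FMR1 FLAG and −0.14 against −0.42 in LIN28 wild type. The same held in the tag-only libraries outside the gel range of highest rRNA median, where the 3′ median was lower with both antibodies. This contrast within the gene was thus not particular to HNRNPC. In RBFOX2, FMR1, LIN28 and DGCR8 libraries MT-CO3 held ranks 3 to 8. It also ranked first in FLAG-only 75-150 kDa and in 5 V5-only ranges, so that its rank was not particular to HNRNPC.

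Tagged and wild-type libraries of a protein covered much of the same mitochondrial sequence. Of the nt under chrM peaks, 83.6% of FMR1 FLAG and 81.8% of FMR1 wild type were shared, 81.3% of RBFOX2 V5 and 82.5% of RBFOX2 wild type, and 81.7% of LIN28 V5 and 79.7% of LIN28 wild type. For HNRNPC the shares were 77.4% of V5 isoform 1 and 80.4% of wild type, or 80.4% of V5 isoform 2 and 81.3% of wild type. DGCR8 had the lowest, 68.4% of DGCR8 FLAG and 55.6% of DGCR8 wild type. Over all 25 libraries peaks covered 8699 nt on at least 1 list, and 1080 nt (12.4%) on every list. Each protein list by itself covered 3060 to 4555 nt. Sharing between lists of different proteins was not measured. The shares thus cannot show whether libraries of the same protein were more alike than other libraries.

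The tagged library had the lower median chrM fold in all 5 proteins, by 0.40 on average (−1.01 in tagged and −0.61 in wild type, SD of the difference 0.40, exact sign-flip permutation p = 0.063, the smallest that 5 pairs allow, adjusted p = 0.0781). The difference was −0.56 in HNRNPC with isoform 1, −0.38 in FMR1, −0.01 in RBFOX2, −0.98 in LIN28 and −0.06 in DGCR8. This design cannot reach 0.05. Relative to the nuclear median of each list, added after seeing the data, the mean difference was −0.47 (exact sign-flip permutation p = 0.1875, adjusted p = 0.234). RBFOX2 then went the other way, at −2.01 in RBFOX2 V5 and −2.21 in RBFOX2 wild type, while the other proteins kept their direction. Of the significant peaks, the FMR1 pair shared its single MT-TY peak, and the 3 of LIN28 V5 and 4 of DGCR8 FLAG had none in their wild-type library to meet.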

How the data were processed

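The 25 deposited peak lists, 1 per immunoprecipitation library and without a header, listed peaks by position and strand with 2 values each. The authors' log2 fold set each immunoprecipitation against its size-matched input, and the authors' −log10 p accompanied it, at 0 where the fold was negative and with a cap of 400. Positions, printed 1-based, are in hg19 per the submitters' processing notes, which also name STAR, cutadapt, SAMtools, Picard and GATK with no version. The tool that called the peaks was not given in the sources used here. Peaks had been called per library, and no read totals were used, so depth in reads is unknown.

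Peaks were assigned to the same-strand GENCODE release 29 gene holding their midpoint. The significance threshold is one in common use for eCLIP, and the labels do not state one. Significant peaks overlapping by at least 1 nt on a strand were merged over libraries. The 10 regions significant in most libraries were named, with up to 3 significant peaks of highest fold per library, and all 37 genes were described in groups. Libraries or gel ranges were compared by two-sided exact sign-flip or label permutation tests, with Benjamini-Hochberg adjustment over 10 tests and a threshold of 0.05. FLAG-only and V5-only libraries were paired by gel range, which the labels give and which share a labelled input. Analyses were run with Python 3.11.15, numpy 2.4.6, pandas 2.3.3 and scipy 1.17.1, and the tests were tried on simulated data. The members, lists and tests were chosen with earlier results of these data known. Alternatives were other thresholds, length weighting, a minimum length of 20 nt, overlap of 50%, averaging by protein, unpaired tests and leaving out each library or range.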

Additional observations from a re-analysis of the deposited data

Results flagged for a closer look

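The share of chrM peaks significant in FLAG-only 125-200 kDa, 18.4%, lay far from the other FLAG-only ranges, of which the next was 3.95%. The same held in V5-only 125-200 kDa, at 12.3%, where the next range had 2.63%. The share of all peaks significant was also highest in these libraries, at 22.1% and 11.5%, and the part that the libraries or their shared input play was not tested. In V5-only 25-100 kDa the MT-TI peak stood low at −0.75, the next V5-only range being 0.82. Of 36 sets of libraries examined for such gaps these 3 stood out, where chance gives about 1 in 20, or 1.8. That figure takes the sets as independent, although sets reuse the same libraries and the 125-200 kDa libraries share a labelled input. The count of 3 therefore cannot decide whether the gaps exceed chance. The gap between chrM and nuclear median fold differed between tag-only ranges and protein libraries by 1.11 on the log2 scale, by an exact permutation test of the difference itself (adjusted p = 0.00326). That test counts libraries of the same protein as independent units, which they are not. It also counts the gel ranges as independent, although neighbouring ranges overlap in mass.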

How the results depend on the processing

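Of 121 values under alternatives, 90 kept their direction and side of the threshold. At a log2 fold of at least 2, chrM held 429 significant peaks in place of 140, the FLAG-only minus V5-only share was 7.95 percentage points and passed (exact permutation, adjusted p = 0.0260), and 3 tagged peaks lay on a wild-type peak in place of 1. Without both 125-200 kDa libraries, an alternative chosen after seeing the data, 69 peaks remained. The FLAG-only minus V5-only median fold was 0.55 to 0.63 with each gel range left out and 0.18 relative to nuclear medians, added after seeing the data, and no longer passed. The chrM minus nuclear difference over ranges was −1.38 to −1.26 with a range left out and also no longer passed, since 6 ranges allow no adjusted p under 0.0521. With 5 protein means the strand difference was 1.87 and the chrM minus nuclear difference −2.34, neither able to pass. The minus minus plus difference over ranges, −0.03 as reported, was 0.032 with length weighting, 0.31 with adjoining peaks merged and 0.24 with tRNA peaks only, and ran from −0.22 to 0.16 with a range left out, positive without 75-150 kDa (0.06) and 125-200 kDa (0.16). With a range left out the FLAG-only minus V5-only share ran from 1.005 to 2.03 points and did not pass. The rRNA minus mRNA difference over ranges ran from −0.68 to −0.10 with a range left out and was 0.22 for peaks of at least 20 nt and 0.29 with peaks merged. In protein libraries it ran from −0.73 to −0.46 with a library left out and passed without LIN28 V5 (−0.73), LIN28 wild type (−0.72) or DGCR8 FLAG (−0.72), while weighting by length gave −0.32. Without the replicate block of gel ranges (unpaired exact permutation), the adjusted p was 0.625 for the share, 1.74 points, and 0.0312 for the median fold, 0.58. The cause of these changes was not tested beyond what the smaller number of units fixes.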
